A study of Homo sapiens with 12 samples.

Results

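The BH3-only death initiators are 10 genes of the BCL2 family, BCL2L11 (BIM), BBC3 (PUMA), PMAIP1 (NOXA), HRK, BIK, BMF, BAD, BID, BNIP3 and BNIP3L (NIX), and they were read here in RNA-sequencing counts of 2 diffuse large B-cell lymphoma (DLBCL) lines. Members were found by the Ensembl identifier that GENCODE pairs with each symbol, and all 10 of 10 were present among the 60675 identifiers of every count file. SUDHL6 and SUDHL16 are germinal centre type human DLBCL lines that die under venetoclax, a BH3 mimetic that occupies BCL2. SUDHL6 parental, SUDHL6 resistant, SUDHL16 parental and SUDHL16 resistant cells gave 3 libraries each, 12 in all. SUDHL6 carries translocations of BCL2 and MYC in both its groups. Each resistant line was derived from its parental line by long exposure to rising venetoclax until it grew in 10 times the original IC50. The resistant lines were then kept in venetoclax, and cells of both kinds were moved to fresh media for experiments. Whether the drug was present when RNA was taken is not given in the sources used here. Resistance and exposure to venetoclax therefore cannot be told apart. The question asked of the members is whether the messages of the proteins that oppose BCL2 differed between a resistant line and its parent. Whether a resistant line is 1 clone, and whether the 3 libraries of a group are separate cultures, is not given in the sources used here, so p-values measure only the spread between these libraries.

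Apoptosis through mitochondria is set by how many BH3-only proteins meet how many anti-apoptotic partners. BCL2, BCL-XL (gene BCL2L1), BCL-W (BCL2L2), MCL1 and BFL1 (BCL2A1) hold the pore formers BAX and BAK in check, and a BH3-only protein inserts a short helix, its BH3 domain, into the groove of such a guardian. BIM and PUMA bind every guardian and, with cleaved BID, can also activate BAX and BAK directly. The others are choosier: NOXA binds mainly MCL1 and BFL1, HRK binds BCL-XL, and BAD binds BCL2, BCL-XL and BCL-W. BNIP3 and NIX are atypical members known better as receptors that mark mitochondria for removal by autophagy. In B cells BIM is a main killer during selection, and it is the cargo that venetoclax releases from BCL2.

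The coding stretch of the BH3 helix is printed because it is the feature that makes these genes a family and the part that venetoclax imitates. In the translated canonical coding sequences of GENCODE 44 the core was sought as a leucine, any 2 residues, a hydrophobic residue (isoleucine, valine, methionine, phenylalanine or leucine), a small residue (glycine, alanine or serine) and an aspartate. It occurred exactly once in each of the 8 classical members and in neither BNIP3 nor BNIP3L, against 12.6% of the 20046 canonical coding sequences, so the pattern alone does not name a BH3 protein. Each line gives 45 bases of one exon, 5′ to 3′ on the coding strand, with the codons of the leucine and the aspartate in capitals.
BCL2L11: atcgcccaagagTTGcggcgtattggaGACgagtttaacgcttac
BBC3: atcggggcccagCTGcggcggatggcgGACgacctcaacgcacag
BID: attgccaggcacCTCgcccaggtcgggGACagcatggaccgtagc
PMAIP1: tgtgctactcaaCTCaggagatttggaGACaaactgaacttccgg
HRK: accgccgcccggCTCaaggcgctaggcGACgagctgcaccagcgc
BIK: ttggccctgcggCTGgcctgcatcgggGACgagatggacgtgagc
BMF: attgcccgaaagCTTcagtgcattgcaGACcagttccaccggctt
BAD: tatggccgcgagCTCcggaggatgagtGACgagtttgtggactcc

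In GRCh38 the stretches lie at chr2:111150091-111150135 on the plus strand in exon 3 of BCL2L11, at chr19:47226576-47226620 on the minus strand in exon 3 of BBC3, and at chr22:17739412-17739456 on the minus strand in exon 4 of BID. That of PMAIP1 lies at chr18:59902661-59902705 on the plus strand in exon 2, that of HRK at chr12:116881167-116881211 on the minus strand in exon 1, and that of BIK at chr22:43127704-43127748 on the plus strand in exon 3. That of BMF lies at chr15:40104192-40104236 on the minus strand in exon 4 and that of BAD at chr11:64271619-64271663 on the minus strand in exon 3. The leucine is residue 152 of 198 in BIM, 141 of 193 in PUMA, 90 of 195 in BID, 29 of 54 in NOXA, 37 of 91 in HRK, 61 of 160 in BIK, 137 of 184 in BMF and 114 of 168 in BAD. The aspartate codon is GAC in all 8, while 4 different leucine codons are used. Over the 28 pairs the stretches shared between 37.8% and 62.2% of their bases, with a median of 47.8%, and the most alike pairs were BBC3 with BCL2L11 and BID with BIK.

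The SUDHL6 libraries held 33992784 to 40885665 counts. Those of SUDHL16 held 14335460 to 22068221, except the parental library CE-26 with 4131927, of which 31.9% fell on identifiers not matched to GENCODE and 55.4% on protein-coding genes. The fold changes of the members in SUDHL16 are therefore given with and without CE-26. The SUDHL6 libraries came from the NEBNext Ultra II kit and a HiSeq instrument and the SUDHL16 libraries from a stranded total RNA kit with ribosomal depletion and a NovaSeq, so kit, instrument and line cannot be told apart, and changes are taken within a line. All 6 B cell and all 4 germinal centre markers were above 3 counts in every library. The 6 T and NK cell markers summed to at most 0.646 CPM (counts after scaling every library to the same depth) in SUDHL6, with CD3D, CD3G, CD2 and KLRD1 at 0, and to 2.04 to 17.9 CPM in SUDHL16 parental and 11.7 to 13.7 CPM in SUDHL16 resistant libraries. The 5 monocyte markers summed to at most 0.743 CPM in SUDHL6, to between 0 and 10.7 CPM in SUDHL16 parental with CD68 at 0, and to at most 1.67 CPM in SUDHL16 resistant with LYZ, CSF1R and FCGR3A at 0. The 6 epithelial and fibroblast markers summed to at most 3.33 CPM in SUDHL6, with EPCAM and DCN at 0, and to 19.7 to 41.3 CPM in SUDHL16 parental libraries, with COL1A1 at 0 and most of the sum from DCN at 19.7, 25.5 and 19.7 CPM. In SUDHL16 resistant libraries they summed to at most 0.425 CPM, with EPCAM, KRT8, KRT18 and COL1A2 at 0, and the part of this list in the changes of SUDHL16 was not tested. For the T and NK cell, monocyte and epithelial lists, the highest sum among the SUDHL16 parental libraries was that of CE-26. The upper limits given for that group therefore rest on this library of few counts. In bulk RNA, fewer expressing cells and less RNA per cell cannot be told apart.

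Levels between genes were compared per length, as RPKM (CPM divided by the kilobases of merged exons). In SUDHL6 BMF, which in resting cells is tethered to the actin-based motor complex, was the most abundant member, at 46.9 ± 0.640 RPKM in parental and 52.9 ± 0.663 in resistant cells (SD, n = 3). PMAIP1 came next at 23.2 ± 1.17 and 17.0 ± 0.646 RPKM. BBC3 was lowest in both SUDHL6 groups, at 2.40 and 1.36 RPKM. The order differed between parental and resistant cells. BCL2L11 was the third member in parental cells with 9.68 RPKM and the sixth in resistant cells with 6.14, below BAD, BNIP3L and BIK. Its range in resistant cells did not overlap that of BIK, the next above it. BAD and BNIP3L overlapped in range in both SUDHL6 groups and have no order there.

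SUDHL16 had a different profile. PMAIP1 stood at 29.6 ± 5.78 RPKM in parental and 24.8 in resistant cells, and BCL2L11 at 22.1 ± 3.83 and 18.1 RPKM. Their ranges overlapped in both groups, and that of BCL2L11 also overlapped BAD (16.3 RPKM) in parental cells and BNIP3L (17.8 RPKM) in resistant cells, so no order is read among them. BMF stood at 15.4 RPKM in parental and 11.5 in resistant cells. BIK was near absent, at 0.560 RPKM in parental cells (0.116 without CE-26) and 0.0990 in resistant cells, from 0 to 6 counts in any library. HRK stood at 2.41 and 0.318 RPKM. It overlapped BBC3 (3.14 RPKM) in range in parental cells, where without CE-26 HRK was at 2.14 and BBC3 at 1.58 RPKM, and it overlapped BIK in resistant cells. Members with at least 1 RPKM on average numbered 10 of 10 in both SUDHL6 groups, 9 in SUDHL16 parental and 8 in SUDHL16 resistant cells. The sum over the 10 members went from 120.2 ± 1.07 to 114 ± 1.73 RPKM in SUDHL6 and from 114 ± 3.63 to 119 ± 23.2 RPKM in SUDHL16, where the parental mean was 115 ± 3.58 without CE-26 (SD, n = 2).

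**Figure D1:**
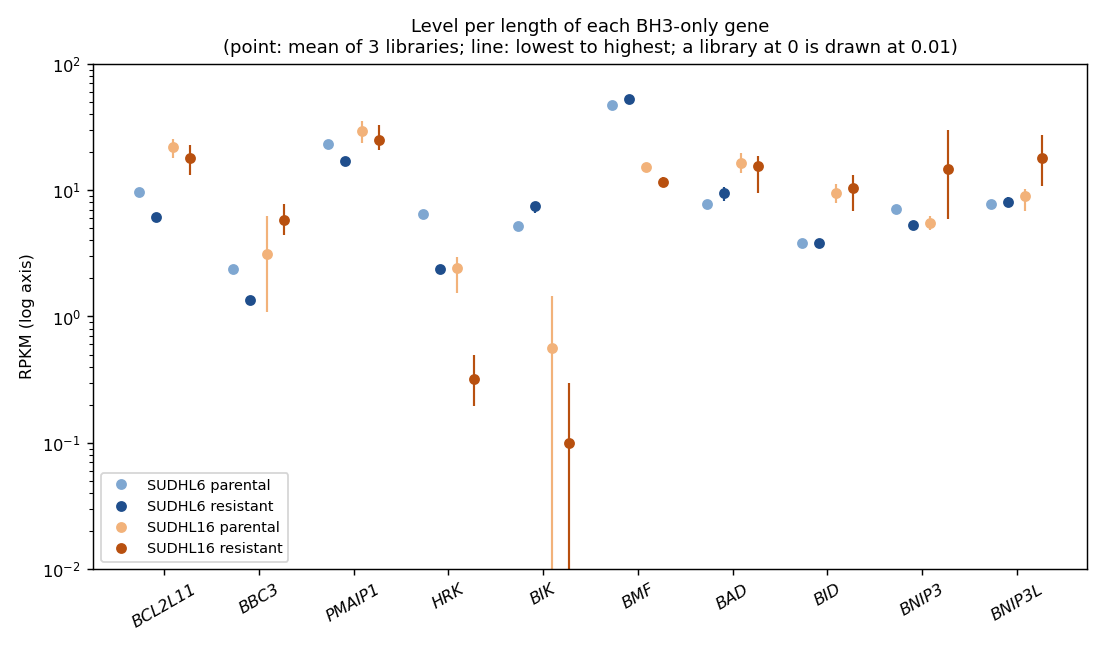
Level of each BH3-only gene in RPKM on a log axis, with a point at the mean of the 3 libraries of each group and a line from the lowest to the highest library, where a library at 0 is drawn at the lower edge. BMF leads in SUDHL6 at 46.9 and 52.9 RPKM, and BIK stands at 5.17 RPKM in parental SUDHL6 and at 0.560 in parental SUDHL16, or 0.116 without the library CE-26.

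In SUDHL6 3 of 10 members were called, all lower in resistant cells. These were HRK, BBC3 and BCL2L11, at 2.68-fold, 1.76-fold and 1.58-fold lower. A call is a Benjamini-Hochberg adjusted p under 0.05 in the edgeR quasi-likelihood test over all genes tested together with a change of at least 1.5-fold. Of all 16662 genes tested, 4.65% were called lower, 4.31% higher and 8.96% in either direction. Without the fold minimum 8 of 10 members passed, 5 lower and 3 higher, where 37.3% of all genes passed (19.7% lower and 17.7% higher), and 8 of 10 did not overlap between the groups, where 47.9% of all genes did not. Against a null of a 1.5-fold change (edgeR glmTreat), HRK passed and BBC3 (adjusted p = 0.115) and BCL2L11 (adjusted p = 0.149) did not, and a single fit of all 12 libraries, which takes in the wider spread of SUDHL16, called 0 members. The median log2 fold change was -0.21 over the members and -4.34e-05 over all genes.

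In SUDHL16 1 of the 9 members tested was called, HRK, 7.49-fold lower in resistant cells. There 2.10% of the 15708 genes tested were called lower, 3.20% higher and 5.30% in either direction. Ranges of the groups did not overlap for HRK and BMF, which lay below, and BNIP3L, which lay above, so 3 of 9, against 26.6% of all genes. Without CE-26 2 of 9 were called, HRK lower and BBC3 higher, where 10.0% of genes were called, 3.32% lower and 6.73% higher. There 6 of 9 did not overlap, against 42.2% of genes. The members' median log2 fold change was -0.08 with CE-26 and 0.09 without it, beside -0.02 and 0.05 over all genes. The libraries of SUDHL16 spread far more than those of SUDHL6, with a biological coefficient of variation of 0.468 (0.339 without CE-26) against 0.0516, and a change that misses the threshold in SUDHL16 does not show that a member stayed level.

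**Figure D2:**
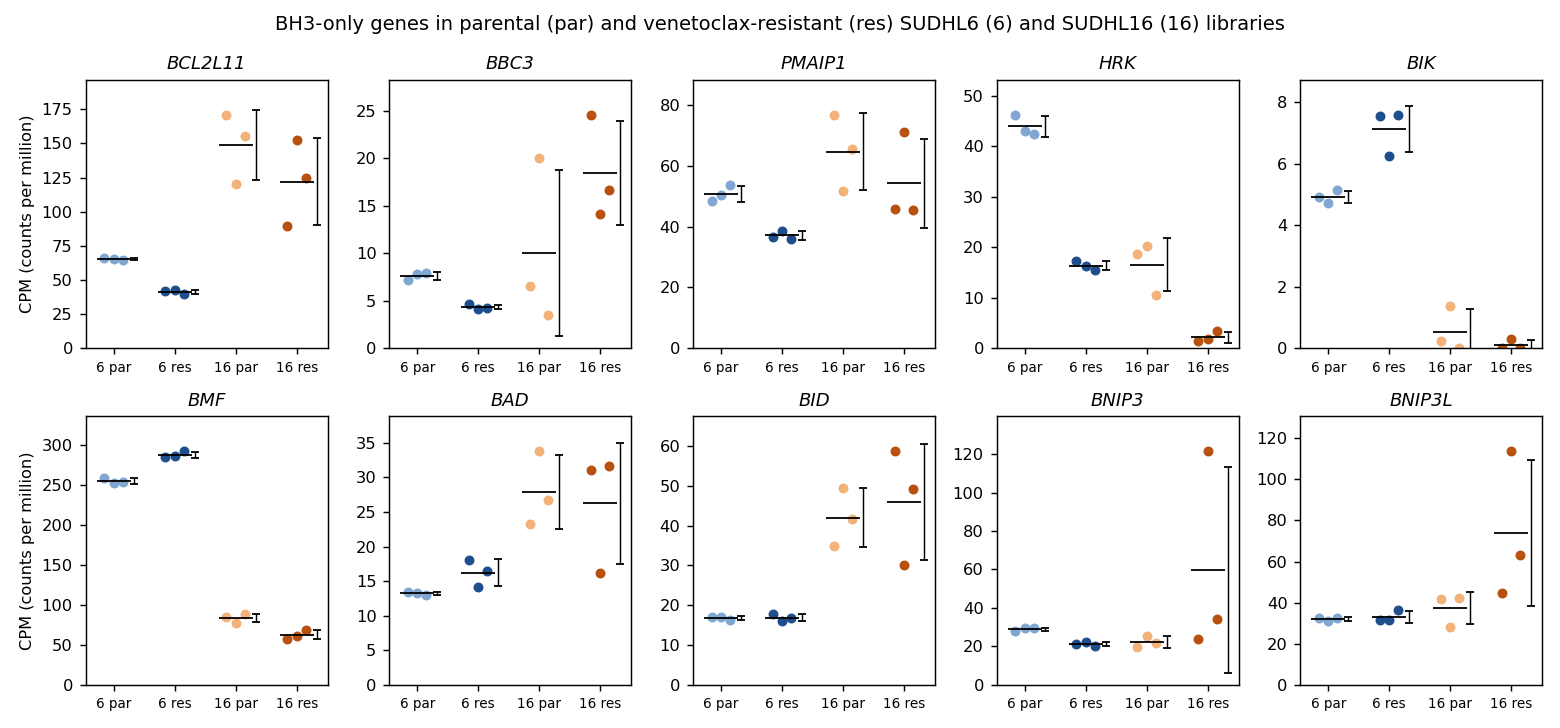
CPM of each BH3-only gene on a linear axis from 0, with a point per library, a line at the mean and a bar of 1 SD to its right, for SUDHL6 (6) and SUDHL16 (16), parental (par) and resistant (res). HRK falls in both lines, from 42.4 to 46.3 CPM down to 15.5 to 17.2 in SUDHL6 and from 10.6 to 20.3 down to 1.34 to 3.40 in SUDHL16.

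BCL2L11 encodes BIM, the activator that all guardians bind and the main BH3-only protein held by BCL2 in lymphoid cells. It was at 66.1, 65.0 and 64.8 CPM in the SUDHL6 parental libraries CE-7, CE-8 and CE-9 and at 41.8, 42.6 and 39.7 CPM in the resistant libraries CE-10, CE-11 and CE-12. The 2 groups were far apart and each was tight. Its log2 fold change was -0.66 (SE 0.03, edgeR adjusted p = 1.34e-08). In SUDHL16 it was at 171, 121 and 155 CPM in the parental libraries CE-25, CE-26 and CE-27 and at 89.2, 152 and 124 CPM in the resistant libraries CE-28, CE-29 and CE-30. These ranges overlapped, and the change of -0.29 (SE 0.28, edgeR adjusted p = 0.647) did not pass. Without CE-26 the ranges no longer overlapped, at a log2 fold change of -0.41 (SE 0.25, edgeR adjusted p = 0.386). An opposite-strand gene, MIR4435-2HG, shares exon sequence with BCL2L11, and it rose in SUDHL6 (log2 fold change 1.39, SE 0.19, edgeR adjusted p = 9.17e-05) at 44 to 153 counts, far under the 1443 to 2637 counts of BCL2L11. Whether the counting used strand is not given in the sources used here.

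BBC3 encodes PUMA, which responds to FOXO factors and binds every guardian. It was scarce in SUDHL6 and lower in each resistant library, at 7.14, 7.82 and 7.94 CPM in parental and 4.60, 4.13 and 4.24 CPM in resistant cells (log2 fold change -0.82, SE 0.10, edgeR adjusted p = 3.73e-05). In SUDHL16 the estimate had the opposite sign. BBC3 stood at 6.56, 19.97 and 3.48 CPM in the parental libraries CE-25, CE-26 and CE-27 and at 24.6, 14.1 and 16.7 CPM in the resistant libraries. CE-26 alone, at 58 counts, lay within the resistant range. With it the log2 fold change was 0.96 (SE 0.60, edgeR adjusted p = 0.449) and did not pass. Without it the change was 1.89 (SE 0.42, edgeR adjusted p = 0.0256), which is 3.70-fold higher in resistant cells.

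BID, which caspase-8 cleaves to link death receptors to mitochondria, gave no difference past the test in either line. In SUDHL6 it was at 16.2 to 17.1 CPM in parental and 16.1 to 17.8 CPM in resistant cells, with a log2 fold change of 0.01 (SE 0.06, edgeR adjusted p = 0.949). In SUDHL16 it ranged from 34.8 to 49.6 CPM in parental and from 30.1 to 58.7 CPM in resistant libraries (0.14, SE 0.29, edgeR adjusted p = 0.861). Both pairs of ranges overlapped, and without CE-26 the SUDHL16 change was 0.28 (edgeR adjusted p = 0.669).

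HRK, a sensitizer that binds BCL-XL and is best known from neurons deprived of growth factor, was the only member called in both lines. In SUDHL6 it was at 46.3, 43.1 and 42.4 CPM in parental and 17.2, 16.3 and 15.5 CPM in resistant libraries (log2 fold change -1.42, SE 0.06, edgeR adjusted p = 1.55e-09). In SUDHL16 it was at 18.7, 20.3 and 10.6 CPM in parental and 1.34, 1.79 and 3.40 CPM in resistant libraries, from 20, 38 and 80 counts (-2.91, SE 0.50, edgeR adjusted p = 0.0147). No ranges overlapped in either line. Without CE-26 the SUDHL16 change was -2.73 (edgeR adjusted p = 0.0102), but the call was lost without CE-25 (edgeR adjusted p = 0.0556), CE-28 (0.0707) or CE-29 (0.0889), at changes of -2.79, -2.64 and -2.78. Of 13576 genes tested in both lines, 27 were called lower in both, HRK among them, and by size HRK was 184th from the bottom of the 16662 genes in SUDHL6 and 406th of 15708 in SUDHL16.

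PMAIP1 encodes NOXA, the small sensitizer for MCL1 and BFL1, whose binding sends MCL1 to the proteasome. It fell in SUDHL6 by less than 1.5-fold, from 48.6, 50.3 and 53.6 CPM to 36.7, 38.7 and 36.0 CPM (log2 fold change -0.45, SE 0.05, edgeR adjusted p = 5.66e-06). The genes around it were lower too: of the 19 other protein-coding genes tested within 5 Mb on chromosome 18, 2 were higher in resistant cells and their median log2 fold change was -0.30. In SUDHL16 PMAIP1 ranged from 51.7 to 76.9 CPM in parental and from 45.5 to 71.3 CPM in resistant libraries and did not pass (-0.26, SE 0.27, edgeR adjusted p = 0.673; without CE-26 -0.39, 0.425).

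BIK, a sensitizer of the endoplasmic reticulum, rose in SUDHL6 from 4.91, 4.72 and 5.14 CPM to 7.56, 6.26 and 7.60 CPM (log2 fold change 0.53, SE 0.11, edgeR adjusted p = 0.00189), under the 1.5-fold minimum. Without CE-11 the change was 0.62 and BIK was called. In SUDHL16 it had 4, 4 and 0 counts in parental and 0, 6 and 0 counts in resistant libraries and was not tested. At the depth of CE-30, a count of 0 allows up to 0.128 CPM, and at that of CE-27 up to 0.186 CPM, for counting error only.

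BMF, released from the cytoskeleton by stress to bind the guardians, rose slightly in SUDHL6, from 259, 253 and 254 CPM to 286, 286 and 292 CPM (log2 fold change 0.17, SE 0.02, edgeR adjusted p = 2.22e-05). The groups did not overlap although the difference was 1.13-fold. In SUDHL16 every resistant library lay lower, at 57.9, 61.4 and 69.0 CPM against 85.1, 77.8 and 88.1 CPM, with a change of -0.42 (SE 0.21, edgeR adjusted p = 0.323) that did not pass, nor did that of -0.45 without CE-26 (edgeR adjusted p = 0.211). Of the 83 other protein-coding genes tested within 5 Mb of BMF on chromosome 15, 10 were higher in SUDHL16 resistant cells and their median log2 fold change was -0.58 (-0.54 without CE-26). BMF, at -0.42, lay among these values. In SUDHL6 the median of the 86 neighbours was 0.06. Around the other members the median over 5 Mb on each side stayed within 0.3 of 0 in both lines. Whether gene copies differ between the cells was not tested.

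BAD, which kinases of growth factor signalling phosphorylate so that 14-3-3 proteins hold it in the cytosol, rose in SUDHL6 from 13.4, 13.3 and 13.0 CPM to 17.99, 14.1 and 16.4 CPM (log2 fold change 0.29, SE 0.09, edgeR adjusted p = 0.0181), by less than 1.5-fold. In SUDHL16 its ranges of 23.3 to 33.8 CPM and 16.2 to 31.6 CPM overlapped (-0.08, SE 0.32, edgeR adjusted p = 0.927), and the change without CE-26 was 0.09 (edgeR adjusted p = 0.912). BAD shares exon sequence with GPR137 on the opposite strand, which had 20.04 to 24.3 CPM in SUDHL6, more than BAD itself, and a change of 0.14 (edgeR adjusted p = 0.0864).

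BNIP3 and BNIP3L, the mitophagy receptors that low oxygen induces through HIF1A, were read in all 12 libraries. In SUDHL6 BNIP3 fell by less than 1.5-fold, from 27.8, 29.4 and 29.4 CPM to 21.4, 22.2 and 20.3 CPM (log2 fold change -0.43, SE 0.06, edgeR adjusted p = 5.24e-05). BNIP3L was at 32.7, 30.9 and 32.7 CPM and then 31.5, 31.6 and 36.5 CPM (0.05, SE 0.06, edgeR adjusted p = 0.601). In SUDHL16 the resistant library CE-29 stood apart from the other libraries. BNIP3 was at 19.6, 25.5 and 21.8 CPM in parental cells and at 23.8, 121 and 34.2 CPM in CE-28, CE-29 and CE-30 (1.43, SE 0.56, edgeR adjusted p = 0.211). BNIP3L was at 41.7, 28.2 and 42.1 CPM in parental cells and at 44.5, 114 and 63.4 CPM in resistant cells (0.97, SE 0.36, edgeR adjusted p = 0.183). Neither change passed, and without CE-29 they were 0.38 and 0.51. Without CE-26 they were 1.53 (edgeR adjusted p = 0.183) and 0.82 (0.219).

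The same library was high for other hypoxia targets. The 12 genes of the hypoxia list summed to 964 CPM in CE-28, 2143 CPM in CE-29 and 768 CPM in CE-30, against 1062 to 1120 CPM in the SUDHL16 parental libraries, and 9 of 12 were highest in CE-29 among the resistant libraries. In SUDHL6 the sum was 1530 to 1541 CPM in parental and 1424 to 1428 CPM in resistant libraries. None of the 9 hypoxia genes tested was called in SUDHL6 or in SUDHL16 with all libraries, with medians of -0.05 and 0.28. Without CE-26, 1 was called, VEGFA (4.14, edgeR adjusted p = 0.0137), which had 4 to 37 counts in the parental libraries left. HIF1A itself was called higher in SUDHL16 resistant cells (1.38, SE 0.31, edgeR adjusted p = 0.0391), at 154, 236 and 315 CPM against 97.8, 92.3 and 80.5 CPM, and was highest in CE-30, not in CE-29. Its call was lost without CE-25, CE-27, CE-29 or CE-30, at an edgeR adjusted p of up to 0.148. Oxygen during culture is not given in the sources used here.

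**Figure D3:**
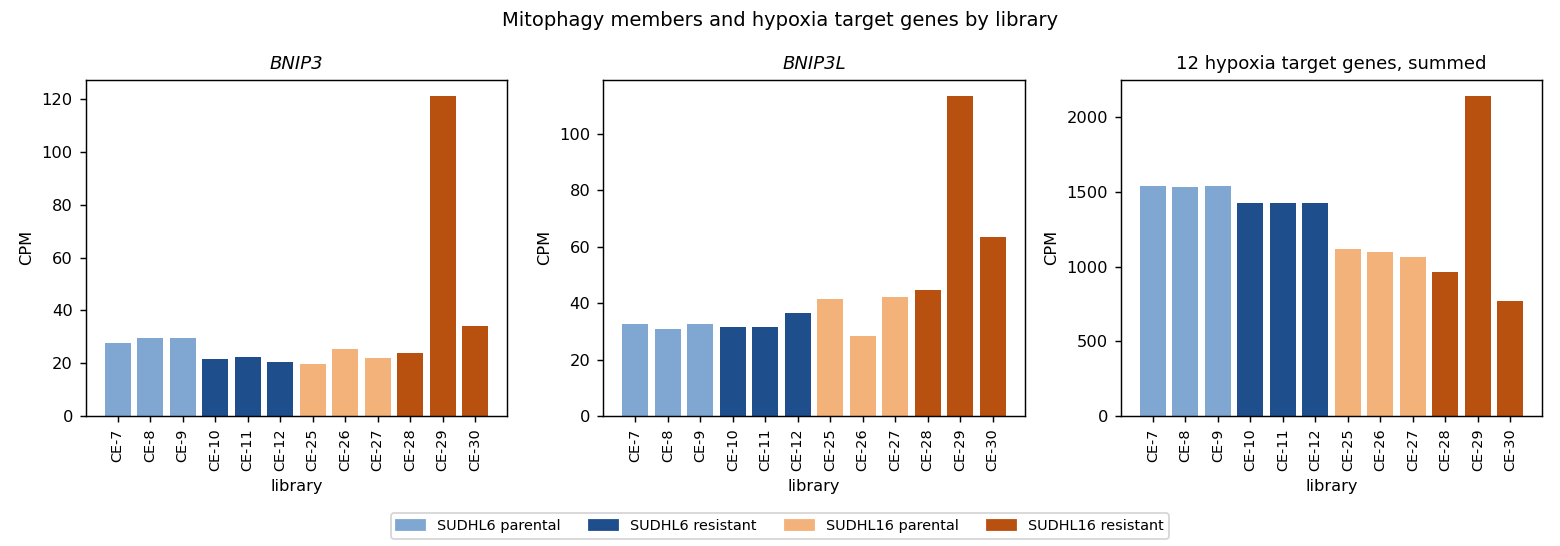
CPM of BNIP3, of BNIP3L and of the 12 hypoxia target genes summed, with 1 bar per library from 0, coloured by group. The resistant SUDHL16 library CE-29 is highest in all 3 panels, at 121, 114 and 2143 CPM.

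**Figure D4:**
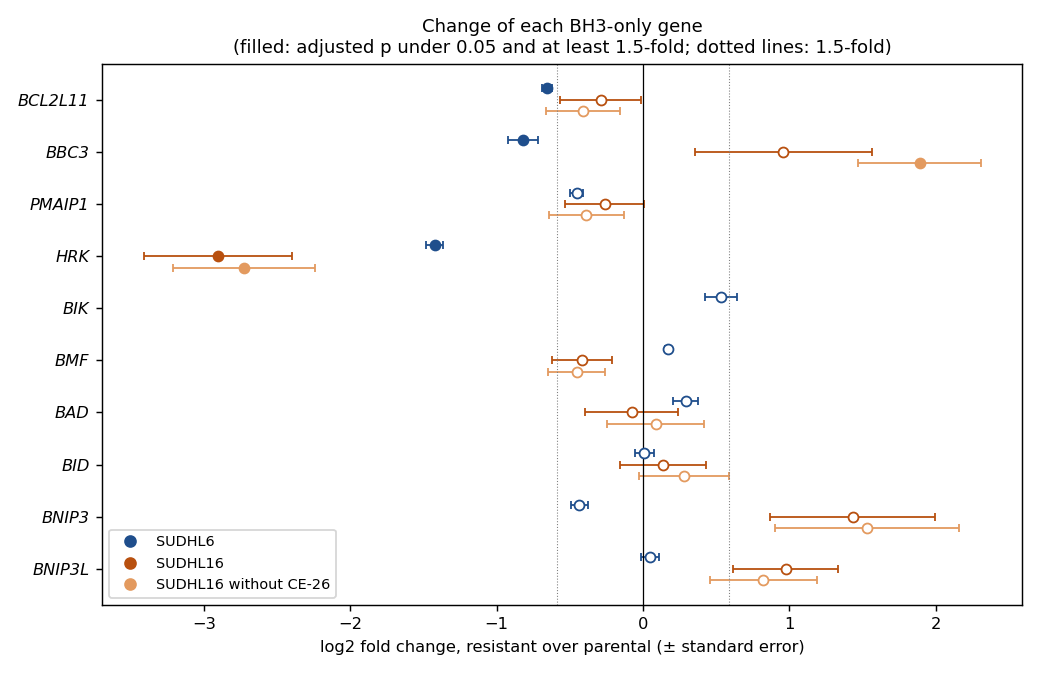
Log2 fold change of each BH3-only gene, resistant over parental, with its standard error, in SUDHL6, in SUDHL16 and in SUDHL16 without CE-26, filled where called. HRK is filled in all 3 fits, BBC3 lies at -0.82 in SUDHL6 and at 1.89 in SUDHL16 without CE-26, and BIK has no value in SUDHL16.

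Whether a change differed between the lines was tested as the interaction in a fit of all 12 libraries. None of the 10 members passed in edgeR with all libraries, where 7.16% of 19621 genes passed, while 5 had an unadjusted p under 0.05 and 3 passed in DESeq2. The largest differences, SUDHL16 minus SUDHL6, were 1.92 for BNIP3 (SE 0.65, edgeR adjusted p = 0.110), 1.89 for BBC3 (SE 0.63, 0.103) and -1.40 for HRK (SE 0.43, 0.0782), apart from BIK at -1.99 with an SE of 1.56. Without CE-26 2 members passed, where 8.15% of genes passed upward and 5.83% downward: BBC3 with a difference of 2.65 (SE 0.39, edgeR adjusted p = 9.64e-04) and BMF with -0.67 (SE 0.14, 0.00824). HRK passed without CE-27 (-1.60, edgeR adjusted p = 0.0384) or CE-30 (-1.87, 0.00927), and BNIP3 without CE-28 (2.33, 0.0237). The joint fit shares its spread between the lines, at 0.369 with all libraries and 0.222 without CE-26. Those values lie below the 0.468 and 0.339 of SUDHL16 alone, so its p-values may be too small. In SUDHL16 alone without CE-26 the change of BMF had an SE of 0.20, larger than that of its difference, and did not pass.

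Among the partners that the members bind, different genes were called in each line. In SUDHL6 MCL1 was called higher, at 527 to 530 CPM in parental and 931 to 935 CPM in resistant cells (log2 fold change 0.82, SE 0.01, edgeR adjusted p = 1.85e-12), and BCL2A1 lower, at 6.83 to 7.67 and 2.14 to 2.59 CPM (-1.62, SE 0.12, edgeR adjusted p = 3.49e-07). Of 6 anti-apoptotic genes 5 were tested there, with 1 called in each direction. In SUDHL16 BCL2L1 was called higher, at 14.1 to 32.7 CPM in parental and 166 to 322 CPM in resistant cells (3.16, SE 0.41, edgeR adjusted p = 0.00391), and of 5 tested the other 4 were not called. Without CE-26 BCL2A1 was called higher too (2.12, edgeR adjusted p = 0.0217). The differences between the lines passed the interaction test for MCL1 (-1.22, edgeR adjusted p = 0.0158), BCL2L1 (3.33, 8.63e-04) and BCL2A1 (3.26, 0.00472). None of the pore effectors BAX, BAK1 and BOK was called, 3 tested in SUDHL6 and 2 in SUDHL16. Without the fold minimum BAK1 passed in SUDHL6, where 37.3% of all genes did, at 1.18-fold higher (0.24, edgeR adjusted p = 7.13e-05). BAX and BOK did not pass there, nor did BAX and BAK1 in SUDHL16.

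A member was then set against its partner within each library, as the log2 ratio of their CPM after adding 0.5, which compares change and not amount because lengths differ. Over 8 pairs in each line, 16 relations in all, the smallest two-sided p of an exact permutation test with 3 against 3 libraries is 0.1, which adjusts to 0.145, so no pair could pass. In SUDHL6 all 8 pairs had ranges that did not overlap, where 47.9% of single genes did not and where the partners MCL1 and BCL2A1 were themselves called. No other gene pairs were examined, so nothing particular to these is read from the count. BCL2L11 over MCL1 went from -3.02 ± 0.01 to -4.50 ± 0.05 (SD, n = 3), a difference of -1.48, and BCL2L11 over BCL2 differed by -0.47. PMAIP1 over MCL1 differed by -1.27 and HRK over BCL2L1 by -1.26. BCL2L11 over BCL2L1 differed by -0.49 and BBC3 over BCL2 by -0.63. The pairs in the other direction were BAD over BCL2L1, at 0.45, and PMAIP1 over BCL2A1, at 1.17, where the partner fell more than the member.

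In SUDHL16 3 of 8 pairs did not overlap, where 26.6% of single genes did not, all of them with BCL2L1 as the partner. HRK over BCL2L1 went from -0.61 ± 1.05 to -6.80 ± 0.46, a difference of -6.19. BCL2L11 over BCL2L1 went from 2.59 ± 0.42 to -0.94 ± 0.71, a difference of -3.53. BAD over BCL2L1 differed by -3.36, while BAD itself changed by -0.08 and BCL2L1 by 3.16. The ratios of BCL2L11 and PMAIP1 to MCL1 differed by 0.09 and 0.13 with overlapping ranges. Ranges also overlapped for BBC3 over BCL2 (1.12), PMAIP1 over BCL2A1 (-1.78) and BCL2L11 over BCL2 (-0.40). Without CE-26 the number of pairs that did not overlap was 5. Those added were PMAIP1 over BCL2A1, lower in resistant libraries, and BBC3 over BCL2, higher. The latter was at -6.30 in CE-25 and -6.94 in CE-27, against -5.02 to -4.12 in resistant libraries.

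**Figure D5:**
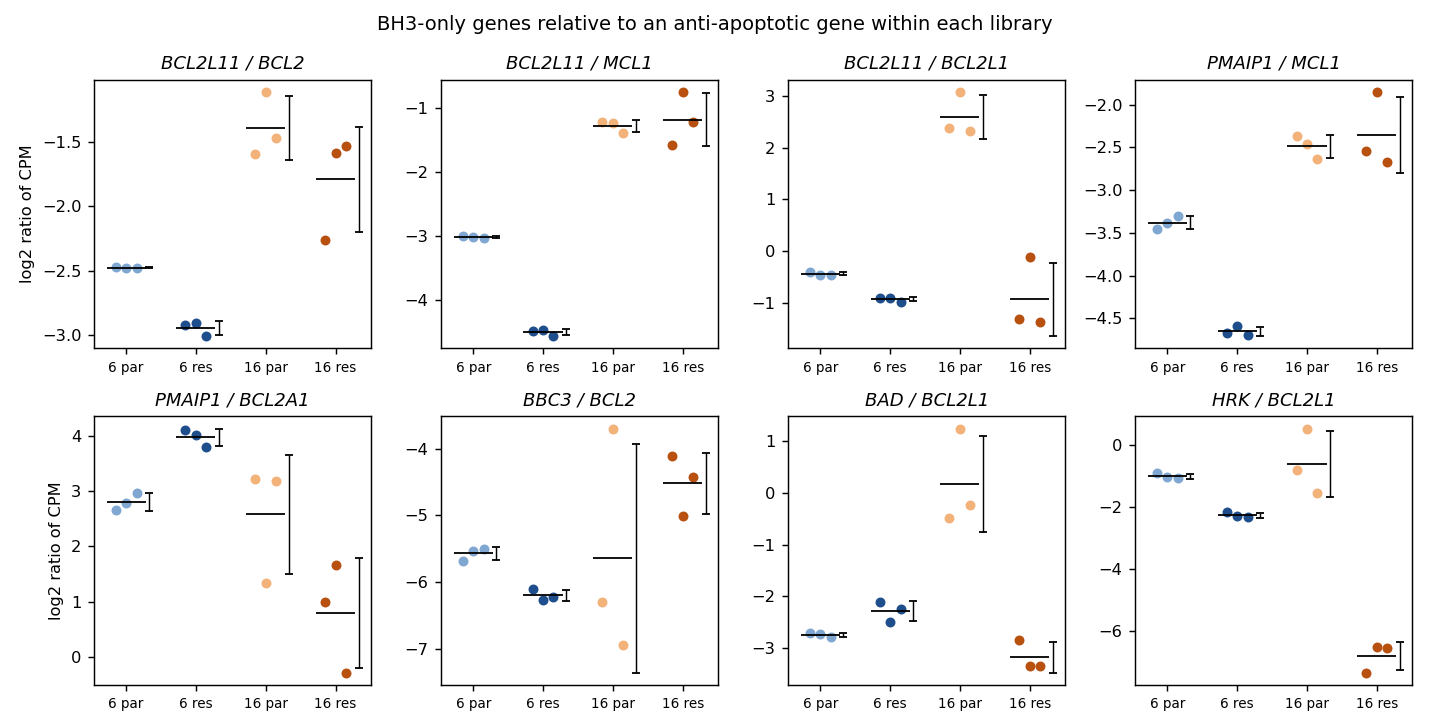
Log2 ratio of CPM of a BH3-only gene to an anti-apoptotic gene for 8 pairs, with a point per library, a line at the mean and a bar of 1 SD, and a separate axis in each panel. HRK over BCL2L1 is lowest in the resistant SUDHL16 libraries, with a mean of -6.80, and BCL2L11 over MCL1 drops by 1.48 in SUDHL6.

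Of the genes that control the members, in 5 lists, 3 of 53 tested were called in SUDHL6 (5.66%, beside 8.96% of all genes) and 4 of 50 in SUDHL16 (8%, beside 5.30%), and nothing particular to these lists is read from the counts. In SUDHL6 0 of 11 transcription factors tested, 0 of 8 genes for docking and turnover of BIM and BMF and 0 of 4 BID proteases were called. Of the 16 genes in the list on BAD phosphorylation and 14-3-3 proteins, 2 were called, both lower. They were the kinases PIM1 (-0.89, edgeR adjusted p = 1.49e-11) and PIM2 (-0.76, 6.88e-10). Of 14 mitophagy partners 1 was called, the receptor PHB2 (-0.62, edgeR adjusted p = 7.40e-10). In SUDHL16 2 of 11 transcription factors were called, HIF1A higher and JUN lower (-3.42, SE 0.50, edgeR adjusted p = 0.00678). JUN, which drives HRK and BCL2L11 in neurons, was at 165, 111 and 39.3 CPM in parental and 10.7, 7.62 and 11.1 CPM in resistant libraries. In SUDHL6 the change of JUN was 0.04 (edgeR adjusted p = 0.829), and a link of JUN to the members was not tested. PIM2 was called higher in SUDHL16 (1.65, edgeR adjusted p = 0.0185), opposite to SUDHL6, and the difference of 2.42 between the lines passed the interaction test (edgeR adjusted p = 0.00122). GABARAP, which binds NIX, was higher (1.14, edgeR adjusted p = 0.0338) as 1 of 14 mitophagy partners. None of 7 docking genes or 3 BID proteases was called. With 1 library left out in turn, BCL2L1 was called in 6 of 6 fits (edgeR adjusted p up to 0.0248), JUN in 3, HIF1A in 2, and PIM2 and GABARAP in 1, that without CE-26. JUN was lost without CE-28, CE-29 or CE-30 (edgeR adjusted p up to 0.0676), and PIM2 (up to 0.0931) and GABARAP (up to 0.137) when any library other than CE-26 was left out. Without CE-26 JUN, HIF1A, PIM2 and GABARAP were called again, and 8 of 51 controlling genes in all, where 10.0% of all genes were called. The other 4 were ATF3 (5.43), CASP10 (4.31), MAP1LC3A (2.16) and YWHAQ (-0.88). In the parental libraries left, ATF3 had 0 to 4 counts and CASP10 0 to 7, so the size of their changes is uncertain. With all libraries none of the 4 was called, and the changes were 0.84 for ATF3 (edgeR adjusted p = 0.828) and 0.73 for CASP10 (0.847).

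For the called members, the protein-coding genes with the most similar pattern over the 12 libraries were sought by the root mean square difference of log2 CPM, each line centred on its parental mean, among 8860 genes. Nearest to BCL2L11 were CCDC91 (0.15), PMAIP1 (0.15) and AGK (0.16), the second of which is itself a member. Nearest to BBC3 were LRP11 (0.20), ARID3B (0.34) and FDXR (0.35). Nearest to HRK were RDX (0.43), NLRP1 (0.50) and TBKBP1 (0.51). The measure grows with the size of a change and with its spread, so distances are not compared between members.

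Of the 3 members called lower in SUDHL6, the 250 bases before the RefSeq start (GRCh38.p14) are shown for HRK and BCL2L11, where they overlap no GENCODE exon. Those before BBC3 overlap GENCODE exons at 99 bases and are not shown. Of the 10 members 8 were found in the promoter table. The motifs searched on both strands were GTAAACA, a core of FOXO sites, and ACGTG, the core of hypoxia response elements. They are in capitals where present.
BCL2L11, chr2:111120664-111120913, plus strand: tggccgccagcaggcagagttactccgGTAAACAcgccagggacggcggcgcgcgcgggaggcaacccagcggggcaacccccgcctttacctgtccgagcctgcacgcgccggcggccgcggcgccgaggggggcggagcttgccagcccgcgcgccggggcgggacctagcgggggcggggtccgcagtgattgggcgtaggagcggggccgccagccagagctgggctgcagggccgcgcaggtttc
HRK, chr12:116881442-116881691, minus strand: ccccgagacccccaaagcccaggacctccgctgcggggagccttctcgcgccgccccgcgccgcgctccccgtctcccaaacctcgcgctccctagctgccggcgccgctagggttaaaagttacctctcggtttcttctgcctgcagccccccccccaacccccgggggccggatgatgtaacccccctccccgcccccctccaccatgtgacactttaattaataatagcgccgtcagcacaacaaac

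The BCL2L11 stretch held 34 CpG and 1 GTAAACA, a motif present in 2.98% of the 35116 stretches of that length. The HRK stretch held 22 CpG and neither motif, and the median over all stretches was 11 CpG. ACGTG was present before BBC3 and BNIP3, as CACGTG, which reads on both strands, and in 18.5% of all stretches. A match of letters describes the sequence and was not tested for binding.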

How the data were processed

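RNA of the 4 groups was sequenced by the authors, who trimmed reads with Trim Galore, aligned them to GRCh38 with HISAT2, assembled with StringTie and analysed with edgeR. They deposited for each library the raw count of reads per gene in whole numbers, without normalization. The counting tool, annotation and strand setting are not given in the sources used here. Of 60675 identifiers, 56558 (93.2%) were found in GENCODE 44, which gave symbols, positions and exon lengths. The members, lists and tests were chosen with earlier results of these data known.

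Groups were taken from the labels. Each line was fitted alone with edgeR 4.0.16 in R 4.3.3 (filterByExpr, TMM scaling, two-sided quasi-likelihood test, Benjamini-Hochberg adjustment over all genes tested), and a joint fit of all 12 libraries gave the interaction of line and resistance. Calls needed an adjusted p under 0.05 and a 1.5-fold change, and interactions the adjusted p. CPM are on the TMM scale of the line. No pair of libraries of a group had identical counts. The limit allowed by a count of 0 is that of 3 counts. Total counts ran from 4131927 to 40885665. Named genes were the 10 members, the partners of the ratios, up to 3 called genes of smallest adjusted p per list and line, and the 3 genes most like each called member. Pathway lists were written from general knowledge. The epithelial marker DCN and the overlapping genes MIR4435-2HG and GPR137 were named after their values were seen. The test was tested on simulated counts with 200 changed genes in each line. In SUDHL6 it called 75.3% of log2 changes of 1 and 97.9% of those of 2. In SUDHL16 it called 1.06% and 31.8%. Of the simulated calls, 9.68% in SUDHL6 and 12.1% in SUDHL16 fell on unchanged genes. Alternatives were DESeq2 1.42.0, upper-quartile scaling, library totals, no filter, protein-coding genes only, a single fit, limma 3.58.1 voom with quality weights, glmTreat, and each library left out. Python 3.11.15 with pandas 2.3.3, scipy 1.17.1 and matplotlib 3.10.9 did the rest.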

Additional observations from a re-analysis of the deposited data

Results flagged for a closer look

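The change of 2 members differed between the lines by the interaction test once the parental SUDHL16 library CE-26 was left out. For BBC3 the difference, SUDHL16 minus SUDHL6 on the log2 scale, was 2.65 without CE-26 (SE 0.39, edgeR adjusted p = 9.64e-04) and 1.89 with it (SE 0.63, edgeR adjusted p = 0.103). BBC3 was lower in all 3 resistant SUDHL6 libraries than in any parental one, and higher in all 3 resistant SUDHL16 libraries than in CE-25 and CE-27. For BMF the difference was -0.67 without CE-26 (SE 0.14, edgeR adjusted p = 0.00824) and -0.56 with it (SE 0.20, edgeR adjusted p = 0.128). Both differences come from the joint fit, whose spread is shared between the lines, so their p-values may be too small. In SUDHL16 alone without CE-26 the change of BMF was -0.45 (SE 0.20, edgeR adjusted p = 0.211) and did not pass. That of BBC3 passed there (1.89, SE 0.42, edgeR adjusted p = 0.0256). The line cannot be told apart from the kit and the instrument.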

How the results depend on the processing

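No paired analysis was possible because the labels give the libraries no replicate numbers. The log2 fold changes of members kept their sign under every alternative run except for values near 0. In SUDHL6 BID was -0.02 without CE-9 and -0.03 without CE-10 (with a library left out, -0.033 to 0.040), and BNIP3L was -0.03 without CE-12 (-0.027 to 0.083). In SUDHL16 BAD was 0.084 with library totals, 0.049 with no filter, 0.09 without CE-26 and 0.17 without CE-29 (-0.22 to 0.17), and BID was -0.05 without CE-28 (-0.055 to 0.37). Without CE-29 the difference of PMAIP1 between the lines was -0.02 (-0.017 to 0.43), and the SUDHL16 ratios to MCL1 were -0.12 for BCL2L11 (-0.12 to 0.29) and -0.12 for PMAIP1 (-0.12 to 0.29). Library totals moved the median of all genes in SUDHL16 by 0.13, and DESeq2 and upper-quartile scaling moved that of the interaction by -0.10 and -0.15.

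The count of members called in SUDHL6, 3, was 0 in the single fit of all 12 libraries, whose shared spread was 0.369 against 0.0516, 1 (HRK) with glmTreat, 3 to 4 with a library left out, and 8 at any fold, a rule added after the data were seen. In SUDHL16 the count of 1 was 2 in the single fit and with voom, and 0 to 2 with a library left out. Calls in the pathway lists numbered 5 in SUDHL6, 0 in the single fit. In SUDHL16 they numbered 5, and were 10 with DESeq2, 3 with upper-quartile scaling, 8 with no filter, 13 in the single fit, 17 with voom, 3 with glmTreat, and 1 to 11 with a library left out (3 without CE-25, 11 without CE-26, 2 without CE-27 or CE-28, 1 without CE-29 or CE-30). Members differing between the lines, 0, were 3 with DESeq2 or voom, 1 with upper-quartile scaling or library totals, 2 with protein-coding genes only, and 0 to 2 with a library left out. Of the ratio pairs in SUDHL16, 3 to 5 did not overlap with a library left out. With 2 Mb windows the members whose neighbours had a median at least 0.3 from 0 were 1 in SUDHL6 and 2 in SUDHL16, against 0 and 1 with 5 Mb. They were PMAIP1 in SUDHL6 (-0.39, 5 neighbours) and BMF (-0.43, 43 neighbours) and HRK (-0.44, 12 neighbours) in SUDHL16. Without CE-26 the median around HRK was -0.07. The cause was not tested except where stated. The counts of HRK in the resistant SUDHL16 libraries (20 to 80) and of BIK in all SUDHL16 libraries (0 to 6) limit precision there.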
